A study of Mus musculus with 30 samples.

Results

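The extensor digitorum longus (EDL), a fast muscle of the lower hind limb, was compared between OVA-immunized mice of day 40 and OVA-immunized mice of day 14. All 5 OVA mice of each day were used, 10 of the 30 mice in the series, and every gene with a mean above 3 RPKM on either day was tested, 8648 of the 21073 genes measured. RPKM is the number of reads on a gene's exons per kilobase of exon, scaled to the size of the library. The mice were female wild-type SJL/J animals that had received ovalbumin (OVA), an egg white protein that is not a muscle or nerve antigen, under the skin in complete Freund's adjuvant (CFA), an oil emulsion with killed mycobacteria. The 10 unimmunized mice (Ctrl), 5 on each day and of the same sex and strain, gave the same day comparison without OVA or CFA. The 10 remaining mice had been immunized with a myelin peptide in CFA to induce experimental autoimmune encephalomyelitis (EAE), and they entered no test here. Each mouse was sampled once, so the 2 days were compared between different animals, and whatever else differed between the animals or libraries of the 2 days cannot be told apart from time after immunization. Each library came from poly(A) RNA of EDL muscle tissue, which also holds vessels, nerve, tendon, fat and blood cells.

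CFA drives a long inflammatory reaction at the site of injection. It raises the output of neutrophils by the bone marrow, and these short-lived white cells carry the calcium-binding proteins S100A8 and S100A9 and the granule proteins NGP and lipocalin 2. Interferons, by contrast, act through STAT2 and IRF9 on most cell types, muscle fibres included, and turn on antiviral genes such as those of the IFIT and OAS families.

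The libraries carried the fast fibre genes of an EDL muscle. Myh4, the heavy chain of fast IIb fibres, lay between 4304 and 7416 RPKM in the 10 OVA mice, while Myh7, the heavy chain of slow fibres, lay between 58.7 and 139 RPKM. None of the 12 fast fibre or 10 slow fibre markers passed the test between the days. The 20 OVA and Ctrl libraries held an estimated 18.2 to 24.8 M assigned reads. Between mice of 1 group the squared difference was on average 10.3 to 229 times the variance from counting. This mean over genes weighs abundant genes most, so it says little of the counting error in genes at low levels. In a principal component analysis of the 20 mice, the first component held 52.5% of the variance and set 3 mice of day 14 apart at its low end, OVA replicates 1 and 5 and Ctrl replicate 1, and Ctrl replicate 3 of day 40 at its high end. The main counts are given below also without the 3 mice of day 14, and the Ctrl counts also without that Ctrl mouse. Calls that change without the 3 mice are given gene by gene or within the count of their list.

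Transcripts of the small intestine were present in the day 40 libraries of every group. Defa24, an alpha-defensin of Paneth cells, was listed at 0 in all 5 OVA mice on day 14 and at 23.1, 23.3, 13.9, 12.5 and 27.8 RPKM on day 40. Fabp2, the fatty acid carrier of enterocytes, was listed at 0 on day 14 and read 6.44, 5.00, 6.82, 4.92 and 3.92 RPKM on day 40. These day 40 levels were shared by the unimmunized mice, where Defa24 lay between 21.2 and 33.7 RPKM on day 40 and was listed at 0 on day 14. Summed over 38 intestinal genes, a list chosen after their values were seen, the OVA mice held 8.30 to 12.1 RPKM on day 14 and 74.4 to 118 RPKM on day 40, the Ctrl mice 6.81 to 14.5 and 109 to 138 RPKM. Across the whole table, 51 genes were more than 3-fold higher in each of the 15 day 40 mice than in every day 14 mouse at a mean above 0.3 RPKM, 22 of them in the intestinal list and 10 of the Defa family, and 0 genes were so in the opposite direction. Among the genes tested 11 were of this list, and 10 of them entered the test through day 40 alone, so that a higher level there was fixed by the choice of list and the minimum. They include 10 of the 12 higher genes with the greatest fold change (Defa24, Defa30, Apoa1, Fabp2, Itln1, Fabp1, Reg3b, Defa39, Lgals2 and Lgals4). Fitted fold changes of genes listed at 0 depend on the pseudocount and are not given. How these transcripts entered the libraries was not tested.

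**Figure D1:**
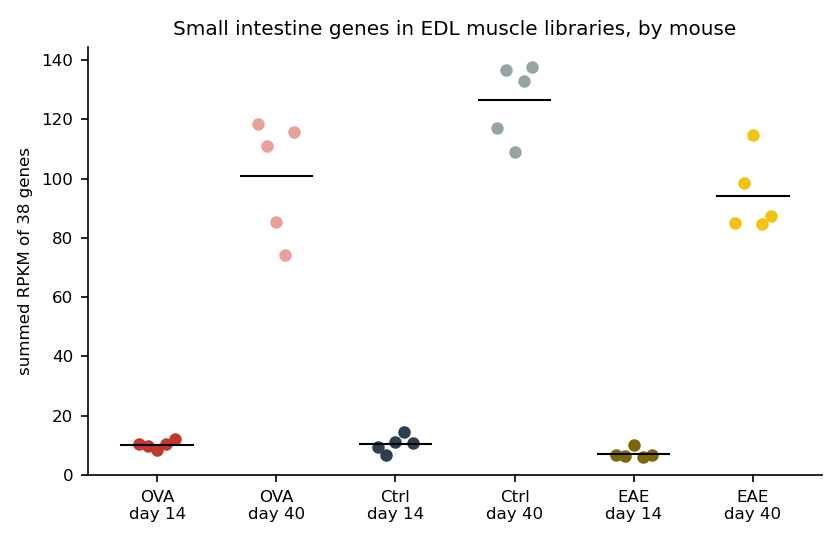
Summed RPKM of 38 small intestine genes in each of the 30 mice by group, with a bar at the group mean. All day 40 mice lie at 74.4 RPKM or above and all day 14 mice at 14.5 RPKM or below, whether or not they were immunized.

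Of the 8648 genes, 183 (2.12%) were higher and 126 (1.46%) lower on day 40 than on day 14 in the OVA mice (limma, with a fold change above 1.5 and an adjusted p, after Benjamini and Hochberg, below 0.05), while 23.9% of all genes had an unadjusted p below 0.05. Of these calls, 87 higher genes exceeded 3 RPKM on day 40 alone and 23 lower genes on day 14 alone, so they entered the test through the day on which they were high. The 5 values of 1 day did not overlap those of the other in 167 of the 183 and 106 of the 126 genes, beside 7.02% and 3.89% of all genes tested that were higher or lower without overlap. With median-of-ratios scaling the split was 142 higher and 164 lower, so the share of higher calls depends on the scaling. When each OVA mouse was left out in turn, 122 higher genes and 51 lower genes remained called in all 10 fits. Without the 3 day 14 mice that stood apart, 132 genes were higher and 38 lower, and leaving out OVA replicate 5 of day 14 alone gave 138 and 59.

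Much of the day difference was also present in mice that had never been immunized. On the same genes, 342 (3.95%) were higher and 361 (4.17%) lower on day 40 in the Ctrl mice, 8.13% in all, and 43.6% had an unadjusted p below 0.05. Without Ctrl replicate 3 of day 40 these counts were 97 and 193, and without Ctrl replicate 1 of day 14 they were 82 and 182. Of the genes lower in the OVA mice 95 were lower in the Ctrl mice as well, 75.4% of the OVA list and 26.3% of the Ctrl list. Of the genes higher in the OVA mice 67 were higher in the Ctrl mice, 36.6% of the OVA list and 19.6% of the Ctrl list, and 1 gene was called in opposite directions, Selp. The 2 day comparisons share no mouse, and their log2 fold changes had a Pearson r of 0.715 across the 8648 genes, which are no replicates of each other. The difference between the 2 day changes was tested as an interaction in the same limma model: 0 genes passed the adjusted threshold, the smallest adjusted p was 0.0519 (Rarg, a retinoic acid receptor named after its value was seen), and 754 genes (8.72%) had an unadjusted p below 0.05, 5.45% with the more positive and 3.27% with the more negative change in the OVA mice. With pseudocounts of 1 or 0.5 RPKM 1 gene passed in each direction. With median-of-ratios scaling 1 positive and 3 negative interactions passed, and with quantile normalization 2 and 2. With a correction for exon length 5 and 5 did, and without the 3 day 14 mice that stood apart 6 and 2. Of the called genes, 75 of the 183 higher and 14 of the 126 lower ones had an unadjusted interaction p below 0.05.

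**Figure D2:**
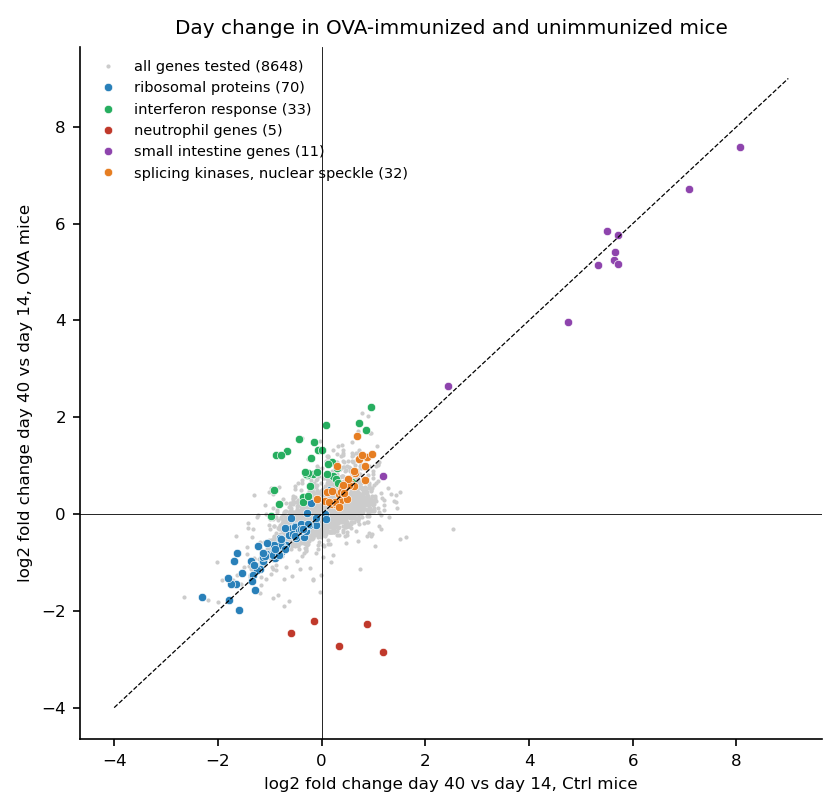
Log2 fold change of day 40 against day 14 for the 8648 genes tested, in the OVA mice (vertical axis) and in the Ctrl mice (horizontal axis), with 5 gene lists in colour and equality as a dashed line. Ribosomal and intestinal genes lie along the line, the 5 neutrophil genes lie below it and most interferon response genes above it.

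Neutrophil genes had the 5 steepest falls among the called genes of the OVA mice. Of 18 listed genes of neutrophil granules and surface, 5 exceeded the level for testing and were called lower (1.46% of all genes), with a median log2 fold change of -2.47 beside 0.04 over all genes tested. Only S100a8 and S100a9 exceeded 3 RPKM on both days, and the other 3 entered the test through day 14, where they were high, so this count and median favour falls. With no minimum the median over all 18 genes was -1.71 and 10 were called lower. In the Ctrl mice the same 5 genes had a median of 0.34 and 0 were called. The promoters of the genes named here were read from RefSeq (GRCm38.p6), as the 250 bases before the start on the gene's own strand, and searched on both strands for TTGCNNAA (N is any base), a core of the sites bound by C/EBP factors, which are needed for granule genes. It was found in 4 of the 5 promoters and in 9.56% of the 32851 promoters of the table. The promoters of S100a9 at chr3:90695722-90695971 (- strand), Ngp at chr9:110419558-110419807 (+ strand) and Lcn2 at chr2:32387740-32387989 (- strand) are shown as 3 of those that hold a match, with the matches in capitals. Retnlg holds the remaining match, and S100a8, which had the greatest fall of the 5, holds none.
S100a9: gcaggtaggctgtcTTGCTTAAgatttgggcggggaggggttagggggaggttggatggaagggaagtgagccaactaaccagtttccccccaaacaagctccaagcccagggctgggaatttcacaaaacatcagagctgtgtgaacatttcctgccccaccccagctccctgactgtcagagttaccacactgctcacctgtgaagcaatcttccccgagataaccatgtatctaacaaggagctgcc
Ngp: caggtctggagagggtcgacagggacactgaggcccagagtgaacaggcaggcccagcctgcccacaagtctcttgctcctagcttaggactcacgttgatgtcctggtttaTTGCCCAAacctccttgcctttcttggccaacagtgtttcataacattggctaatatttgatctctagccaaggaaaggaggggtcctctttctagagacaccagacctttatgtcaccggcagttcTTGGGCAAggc
Lcn2: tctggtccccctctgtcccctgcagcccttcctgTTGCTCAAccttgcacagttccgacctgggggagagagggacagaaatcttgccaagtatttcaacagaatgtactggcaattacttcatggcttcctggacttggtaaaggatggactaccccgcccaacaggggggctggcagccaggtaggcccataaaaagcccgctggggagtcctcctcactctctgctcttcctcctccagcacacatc
A match is a description of the sequence and no measure of binding.

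S100a8, a subunit of calprotectin, read 84.4, 45.7, 22.5, 28.0 and 52.1 RPKM in the 5 OVA mice of day 14 and 5.29, 6.82, 3.12, 8.81 and 6.10 RPKM in those of day 40. Every day 40 value lay below every day 14 value, and the log2 fold change was -2.85 ± 0.58 (SE, limma adjusted p = 0.00499). Its partner S100a9 read 109, 104, 29.2, 41.6 and 75.1 RPKM on day 14 and 12.7, 19.7, 8.21, 14.9 and 12.5 RPKM on day 40. These groups did not overlap either, with a log2 fold change of -2.27 ± 0.56 (adjusted p = 0.0169). Ngp, a protein of the secondary granules, stood at 6.54, 10.7, 4.61, 3.92 and 6.82 RPKM on day 14 and at 0.199, 1.82, 0.632, 1.14 and 1.29 RPKM on day 40, again without overlap. Its log2 fold change was -2.73 ± 0.47 (adjusted p = 0.00127). Retnlg, a resistin-like protein of neutrophils, fell from a mean of 10.0 ± 5.89 to 1.51 ± 0.365 RPKM (SD, n = 5 each), and Lcn2, the iron-chelator binding lipocalin 2, fell from 9.38 ± 3.52 to 1.97 ± 0.903 RPKM. Ifitm6, an interferon-inducible transmembrane protein of myeloid cells outside this list, fell from 3.09 ± 0.849 to 0.933 ± 0.472 RPKM (adjusted p = 0.00751), and it too entered the test through day 14 alone. It was called in all 8 of the 10 fits without 1 OVA mouse in which it was tested. Without the 3 day 14 mice that stood apart it fell below the level for testing. The calls of all 5 listed genes stood in each of the 10 fits without 1 OVA mouse. Without the 3 day 14 mice that stood apart, S100a8, Ngp and Retnlg remained called while S100a9 (log2 fold change -1.93) and Lcn2 (-2.04) did not.

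On day 14 the OVA mice stood above the unimmunized mice for these genes. The Ctrl mice of day 14 lay between 0.807 and 1.85 RPKM for S100a8 and between 0 and 0.269 RPKM for Ngp, and all 5 neutrophil genes were among the 11 genes (0.127%) called higher in OVA than in Ctrl mice on day 14 in the same model. On day 40 their median log2 difference from the Ctrl mice was 1.20 and 0 were called, beside 0 calls in either direction and 124 genes (1.43%) with an unadjusted p below 0.05 over all genes. These comparisons use the same OVA mice as the day comparison and are no independent support for it. One Ctrl mouse of day 40, replicate 5, read 24.6 RPKM for S100a8 while the other 4 read 1.12 to 2.58. The interaction, OVA day change minus Ctrl day change, was -4.04 for S100a8 (unadjusted p = 7.59e-05, limma adjusted p = 0.109) and -3.07 for Ngp (unadjusted p = 0.000159, adjusted p = 0.115). Without that Ctrl mouse these differences were -3.28 and -2.90, and that of S100a8 then passed the adjusted threshold.

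The summed level of the 18 genes ran from 76.6 to 252 RPKM in the OVA mice of day 14 and from 20.1 to 42.2 RPKM in those of day 40. In the Ctrl mice it ran from 7.75 to 15.4 RPKM on day 14 and from 7.42 to 83.5 RPKM on day 40, the highest in replicate 5. The remaining Ctrl mice of day 40 lay at 12.4 RPKM or below, under all OVA mice of day 40. In the EAE mice, which entered no test, the sum ran from 226 to 413 RPKM on day 14 and from 11.7 to 59.2 RPKM on day 40. In a bulk muscle, fewer cells of a type and less RNA per cell cannot be told apart. Erythroid genes moved with them in part: Hba-a1, an alpha-globin, lay between 217 and 934 RPKM on day 14 and between 48.2 and 1279 RPKM on day 40, the 7 tested erythroid genes had a median log2 fold change of -1.36, and 0 were called. The part of blood content in the neutrophil result was not tested.

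**Figure D3:**
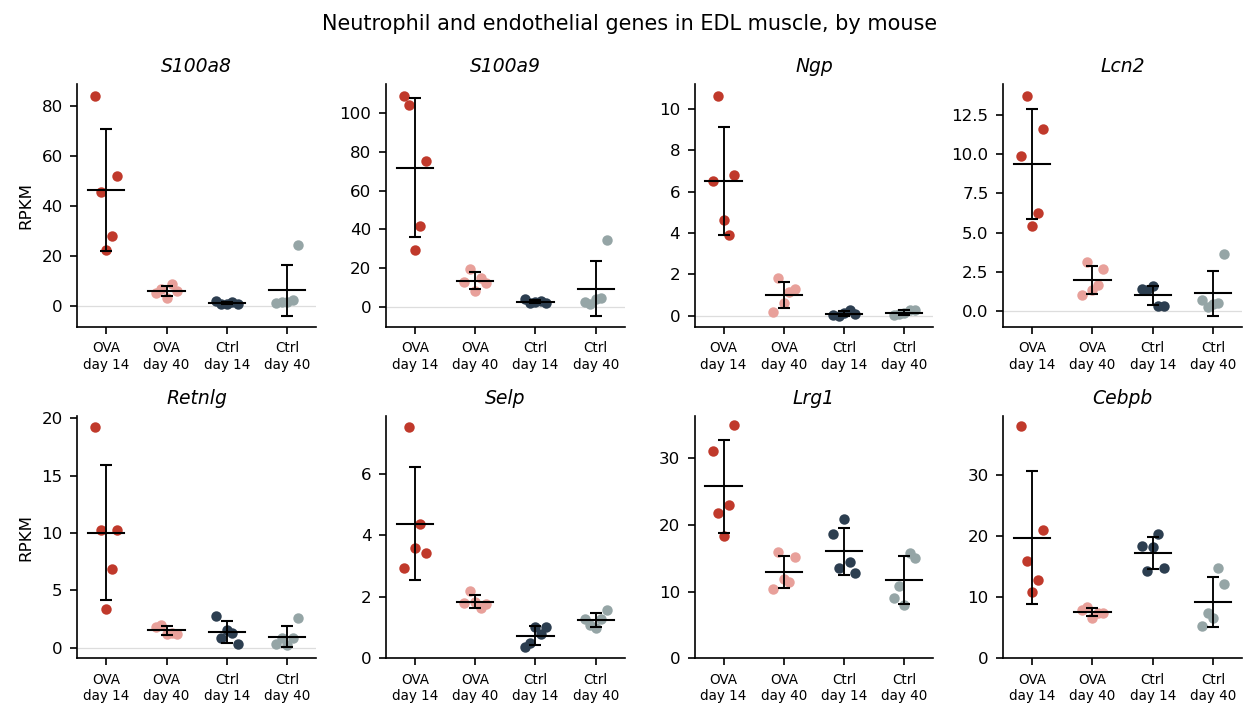
RPKM of 5 neutrophil genes (S100a8, S100a9, Ngp, Lcn2, Retnlg) and of Selp, Lrg1 and Cebpb in each mouse of the OVA and Ctrl groups, 5 mice a group, with the mean and SD. The OVA mice of day 14 lie above those of day 40 without overlap in all 8 genes.

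A few genes of endothelial activation and of the acute phase response were called lower. Selp, the endothelial and platelet adhesion receptor P-selectin that slows neutrophils on the vessel wall, read 2.95, 7.52, 3.57, 4.38 and 3.42 RPKM on day 14 and 1.80, 2.19, 1.83, 1.62 and 1.76 RPKM on day 40. The groups did not overlap (log2 fold change -1.13 ± 0.25, limma adjusted p = 0.0087), but Selp entered the test through day 14 alone, where it was high. In the Ctrl mice Selp was higher on day 40 (log2 fold change 0.74, adjusted p = 0.038), and the difference between the 2 day changes was -1.87 (unadjusted p = 3.43e-05, adjusted p = 0.0988). Lrg1, a secreted glycoprotein of inflamed endothelium and neutrophils, fell from 25.8 ± 6.94 to 13.0 ± 2.43 RPKM (adjusted p = 0.00643), with 12.8 to 20.9 RPKM in the Ctrl mice of day 14. Without the 3 day 14 mice that stood apart the value of Lrg1 was -0.70 and no longer called, while Selp stayed called. Selp and Lrg1 were the 2 called genes of 8 tested in the endothelial activation list (1.46% of all genes were called lower), in which Vcam1 and Icam1, the adhesion molecules for other leukocytes, had log2 fold changes of 0.23 and -0.02.

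Of 15 tested genes of the interleukin 6 and acute phase list 3 were lower (1.46% of all genes), Lrg1, Cebpb and Cebpd. Cebpb, a C/EBP factor of inflammation, read 38.0, 16.0, 10.9, 12.8 and 21.0 RPKM on day 14 and 7.88, 8.35, 6.66, 7.42 and 7.41 RPKM on day 40 (log2 fold change -1.23 ± 0.28, limma adjusted p = 0.01). The groups did not overlap, but Cebpb was also lower in the Ctrl mice (-0.98, adjusted p = 0.0209), and without the 3 day 14 mice that stood apart its value was -0.79 and no longer called. Cebpd, a related factor and the 1 called gene of 18 in the glucocorticoid response list, had overlapping groups (-1.10, adjusted p = 0.0295), stood in 5 of the 10 fits without 1 OVA mouse and was not called without the 3 (-0.67). Lyve1, which marks resident macrophages and lymphatic vessels, was the 1 of 10 macrophage markers called and the only one to enter the test through day 14 alone, at 5.04 RPKM on day 14 and 2.89 on day 40 (adjusted p = 0.0209), and it was not called without the 3 day 14 mice that stood apart (-0.76) or without OVA replicate 5 of day 14 or replicate 1 of day 40. Itgam, a surface integrin of neutrophils and macrophages, had a log2 fold change of -0.15. The summed macrophage markers ran from 228 to 333 RPKM on day 14 and from 237 to 293 RPKM on day 40, so these groups overlapped. Of 14 markers of T, B and plasma cells only Ptprc, the pan-leukocyte CD45, was abundant enough for the test, at a log2 fold change of 0.10. Ighm, the heavy chain of IgM and in no list, was named after its value was seen: it read 11.7 to 18.9 RPKM on day 14 and 26.5 to 41.6 RPKM on day 40 (adjusted p = 0.000257).

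Part of the interferon response genes were higher on day 40. Of 46 listed genes 33 were tested, 13 were called higher on day 40 (2.12% of all genes) and 0 lower, and the median log2 fold change was 0.86 beside 0.04 over all genes. Of the 33, 19 exceeded 3 RPKM on both days and 3 of those were called, while 14 entered the test through day 40 alone and 10 of those were called, so the count and median favour rises. With no minimum the median over all 46 genes was 0.95 and 17 were called higher. The 2 OVA groups did not overlap in 17 of the 33, all higher on day 40, beside 7.02% of all genes tested. In the Ctrl mice 1 was higher and 1 lower with a median of -0.16, and 20 of the 33 had an unadjusted interaction p below 0.05, all with the more positive change in the OVA mice, beside 5.45% of all genes tested in that direction. No interaction passed adjustment. The RefSeq table holds 13 promoters of 10 of the called genes, and 4 of the 13 held GAAA, any pair of bases and GAAA again, a form of the interferon-stimulated response element bound by complexes with STAT2 and IRF9, on either strand within the 250 bases before the start, beside 2.98% of all promoters. The promoters of Ifit3 at chr19:34583279-34583528 (+ strand), Ifit3b at chr19:34607707-34607956 (+ strand) and Stat2 at chr10:128270248-128270497 (+ strand) are shown because these genes rose and hold the element, with the matches in capitals as their reverse strand.
Ifit3: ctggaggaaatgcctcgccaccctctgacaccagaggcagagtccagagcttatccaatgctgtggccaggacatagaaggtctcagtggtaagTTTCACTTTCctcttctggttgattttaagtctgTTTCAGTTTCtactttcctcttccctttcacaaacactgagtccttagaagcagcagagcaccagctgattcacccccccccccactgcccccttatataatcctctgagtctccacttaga
Ifit3b: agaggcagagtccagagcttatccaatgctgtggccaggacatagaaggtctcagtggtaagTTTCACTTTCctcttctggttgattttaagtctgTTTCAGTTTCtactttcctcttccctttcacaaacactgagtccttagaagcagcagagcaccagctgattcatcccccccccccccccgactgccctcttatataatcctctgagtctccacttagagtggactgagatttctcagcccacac
Stat2: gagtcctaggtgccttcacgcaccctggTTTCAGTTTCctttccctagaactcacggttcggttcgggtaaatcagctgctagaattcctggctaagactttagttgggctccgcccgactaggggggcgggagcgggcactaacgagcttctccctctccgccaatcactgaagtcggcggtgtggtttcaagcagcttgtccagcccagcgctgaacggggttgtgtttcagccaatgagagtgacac
Ifit3 and Ifit3b are near-identical copies on 1 chromosome, with the same matched stretches here, so the split of reads between them is uncertain.

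Ifit3, an antiviral protein with tetratricopeptide repeats, read 2.56, 2.69, 2.37, 2.41 and 3.88 RPKM on day 14 and 7.11, 7.39, 17.6, 5.71 and 6.94 RPKM on day 40. The groups did not overlap (log2 fold change 1.55 ± 0.36, limma adjusted p = 0.0124). Oas2, a sensor enzyme that activates RNase L, stood at 0.494, 1.31, 0.915, 0.768 and 0.621 RPKM on day 14 and at 2.58, 2.52, 3.47, 3.50 and 3.78 RPKM on day 40. This gave the clearest separation among the interferon genes (1.87 ± 0.27, adjusted p = 0.000259), but Oas2 entered the test through day 40 alone. Oasl2, a relative of the OAS enzymes, read 1.51, 2.78, 1.94, 1.99 and 3.37 RPKM on day 14 and 4.46, 6.25, 9.49, 4.35 and 5.32 RPKM on day 40, without overlap (adjusted p = 0.00885). Ifit3b rose from 1.40 ± 0.281 to 4.27 ± 1.56 RPKM, and Xaf1 (log2 fold change 0.86), a factor that promotes apoptosis, and Ifit2 (0.78) were called as well. With quantile normalization Xaf1 and Ifit2 were not. Like Oas2, the genes Ifit3, Oasl2 and Ifit3b entered the test through day 40 alone, where they were high.

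Transcription factors of the pathway, Stat2, Irf9 and Irf7, rose as well. Stat2 read 2.04, 3.88, 3.40, 2.41 and 2.77 RPKM on day 14 and 4.36, 5.73, 8.19, 5.59 and 7.14 RPKM on day 40. All day 40 values were above all day 14 values (log2 fold change 1.07 ± 0.24, limma adjusted p = 0.0084). Stat2 entered the test through day 40 alone, however, and was not called without the 3 day 14 mice that stood apart (0.91). Irf9, its DNA-binding partner, rose from 5.62 ± 0.905 to 10.1 ± 2.44 RPKM (adjusted p = 0.00828), again without overlap. Irf7, the factor that amplifies type I interferon, rose from 2.90 ± 0.818 to 7.20 ± 1.67 RPKM with an adjusted p of 0.0466. It too entered the test through day 40 alone, and its call was lost in every one of the 10 fits without 1 OVA mouse, although the groups did not overlap. Gbp4, a guanylate-binding protein, had the greatest value of the list (2.21 ± 0.63, adjusted p = 0.0338) and was called in 2 of those 10 fits. Rtp4, a chaperone of receptors, and Trim30a, a ubiquitin ligase of the TRIM family, had overlapping groups and were called in 3 of the 10 fits each. Ddx58, the RNA sensor RIG-I, overlapped too and was called in 7 of the 9 fits in which it was tested. Gbp4 (1.56), Ifit2 (0.66), Trim30a (0.55) and Ddx58 (0.43) were not called without the 3 day 14 mice that stood apart. Ifit1 (1.28), which was not called with all mice, then was. Isg15, a ubiquitin-like protein, was not called, with values of 3.50 to 9.46 RPKM on day 14 and 3.50 to 10.4 RPKM on day 40.

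The unimmunized mice of day 14 did not stand at the low interferon level of the OVA mice of that day. The summed RPKM of the 46 genes ran from 193 to 266 in the OVA mice of day 14, from 317 to 628 in those of day 40, from 268 to 1202 in the Ctrl mice of day 14 and from 285 to 356 in the Ctrl mice of day 40. The OVA mice of day 14 were thus the lowest of the 4 groups on this sum, without overlap with any of them. In the EAE mice, which entered no test, the sum was lower still on day 14, at 103 to 158.5 RPKM. It ran from 200 to 372 RPKM in the EAE mice of day 40. Ifit3 (log2 difference -1.78), Ifit3b (-1.70) and Xaf1 (-0.95) were among the 22 genes (0.254%) called lower in OVA than in Ctrl mice on day 14, and 0 of the 33 were called on day 40, where the median difference was 0.28. Among the Ctrl mice of day 14 the spread was wide, with Igtp, an interferon-induced GTPase, between 13.7 and 301 RPKM. Without the 3 day 14 mice that stood apart, 9 of the 33 genes were called higher and the median was 0.75. With quantile normalization 7 were called at a median of 0.78, and with a correction for exon length 13 at 0.82, the last chosen after the data were seen.

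**Figure D4:**
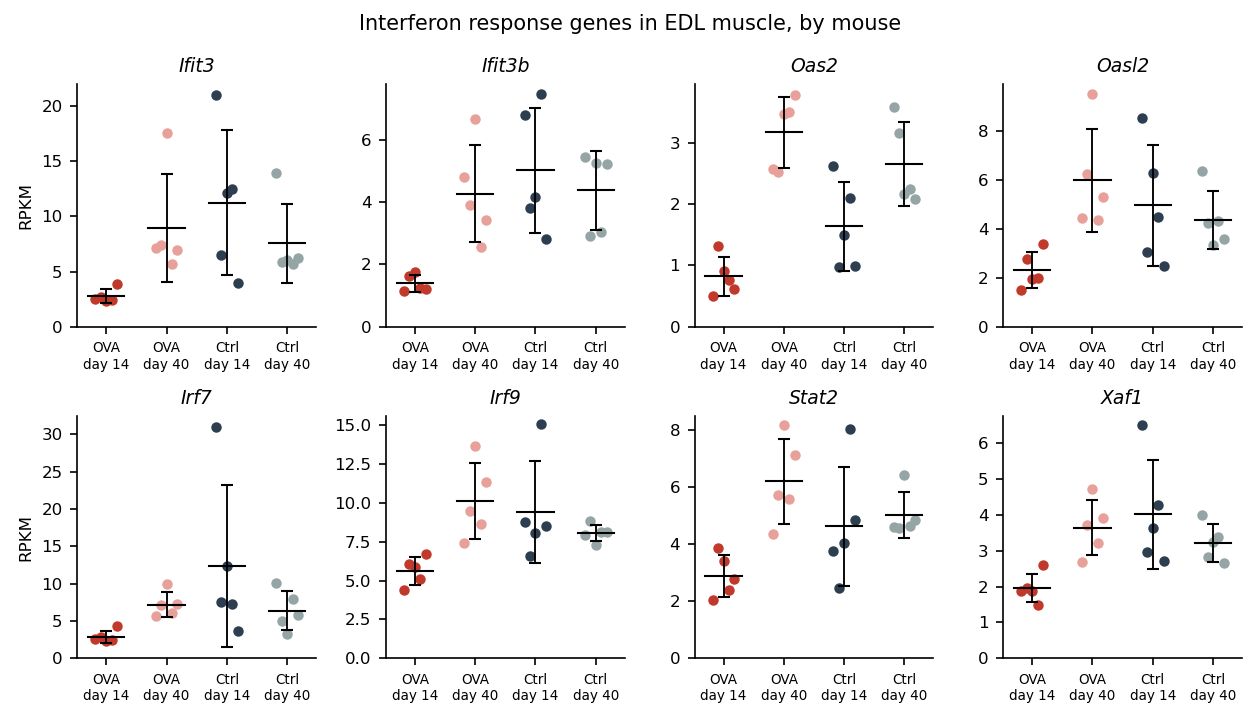
RPKM of 8 interferon response genes in each mouse of the OVA and Ctrl groups, 5 mice a group, with the mean and SD. The OVA mice of day 14 lie below the OVA mice of day 40 without overlap in all 8 genes, while the Ctrl mice of day 14 are spread widely.

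Antigen presentation genes showed smaller differences. None of 13 tested MHC class I genes was called, with a median log2 fold change of 0.37, though H2-K1, H2-D1 and Tap1 were higher on day 40 without overlap of the OVA groups, beside 7.02% of all genes (log2 fold changes 0.64, 0.62 and 1.14, limma adjusted p = 0.252, 0.236 and 0.101). None of 7 tested MHC class II genes was called, with a median of 0.22, and their values overlapped between the days in all 7. In 4 of the class I and 5 of the class II genes the unadjusted interaction p was below 0.05, each with the more positive change in the OVA mice (5.45% of all genes), with a negative median change in the Ctrl mice of -0.36 and -0.55. For Cd74, the invariant chain, the mean stood at 233 RPKM on day 14 and 270.5 RPKM on day 40 in the OVA mice and at 374 and 216 RPKM in the Ctrl mice.

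Part of the cytosolic ribosome genes were lower on day 40, in OVA and in Ctrl mice. Of 70 ribosomal protein genes tested, 22 were called lower and 0 higher in the OVA mice with a median log2 fold change of -0.66, and 42 were lower in the Ctrl mice with a median of -0.79. Over all genes tested, 1.46% were called lower in the OVA mice and 4.17% in the Ctrl mice. None of the 70 had an unadjusted interaction p below 0.05. Of the 22, 19 exceeded 3 RPKM on both days, while Rps7, Rpl38 and Rps29 did so on day 14 alone, where they were high. Rps7, a protein of the small subunit, read 13.3, 4.95, 5.90, 6.23 and 9.09 RPKM on day 14 and 2.83, 2.41, 2.80, 2.01 and 2.19 RPKM on day 40 (-1.57 ± 0.21, limma adjusted p = 0.000129). The groups did not overlap, and the highest of the 5 day 14 values was that of replicate 1, one of the mice that stood apart. Rpl38, of the large subunit, read 17.2, 3.94, 4.09, 5.17 and 6.64 RPKM on day 14, with replicate 1 far above the other 4, and 0.979 to 2.78 RPKM on day 40. Rps16 (-1.77), Rps29 (-1.71) and, outside the ribosome, Scand1 (-1.70) were also among the 12 lower genes with the greatest fold change, and all 3 were lower in the Ctrl mice too. Without the 3 day 14 mice that stood apart the ribosomal median was -0.22 and 5 genes were called, with Rps29 (-0.83) and Scand1 (-1.18) no longer among the calls, and 7 of the 22 ribosomal calls stood in all 10 fits without 1 OVA mouse. Ribosomal protein genes have many near-identical pseudogenes, so their counts are uncertain.

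Part of the respiratory chain genes were lower as well. Of 37 complex I genes 7 were lower in the OVA mice (median -0.52) and 20 in the Ctrl mice, and of 40 nuclear genes of complexes II to V 15 were lower (median -0.54) and 21 in the Ctrl mice. Over all genes tested, 1.46% were called lower in the OVA mice and 4.17% in the Ctrl mice. None of the 37 or of the 40 had an unadjusted interaction p below 0.05. Cox5b, a subunit of cytochrome c oxidase, read 305, 167, 185, 180.5 and 281 RPKM on day 14 and 92.2, 99.3, 85.2, 86.0 and 91.5 RPKM on day 40 (-1.26 ± 0.19, limma adjusted p = 0.00059). No day 40 value reached the lowest value of day 14. Atp5g1, of the membrane ring of ATP synthase, fell from 21.9 ± 10.9 to 5.74 ± 0.902 RPKM in the OVA mice and from 20.0 ± 5.39 to 4.24 ± 0.750 RPKM in the Ctrl mice, and it too has near-identical copies. None of the 13 mitochondrially encoded genes had an unadjusted interaction p below 0.05 either. Of the 13, 6 were lower in the OVA mice (ND3, ND4L, COX2, COX3, ATP6 and ATP8) and 2 in the Ctrl mice, with medians of -0.26 and -0.05. Only ND3 and COX2 stayed called in all 10 fits without 1 OVA mouse, while ATP6 and COX3 were called in 6, ND4L in 4 and ATP8 in 1, and with quantile normalization 2 of the 13 were called. Of the 7 complex I calls 3 stood in all 10 fits, and of the 15 calls in complexes II to V 4 did. Quantile normalization left 4 lower calls in complex I (median -0.29) and 7 in complexes II to V (median -0.27). COX2 stood at 2210.4 to 5205 RPKM on day 14 and at 1565 to 2157 RPKM on day 40 in the OVA mice, without overlap. Without the 3 day 14 mice that stood apart, 3 genes of complex I, 3 of complexes II to V and 1 of the mitochondrial genome were called, at medians of -0.22, -0.30 and -0.36. ND3 (-0.72) and COX2 (-0.57) were then no longer called.

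The day change rose with the length of a gene's exons in both kinds of mice. In the OVA mice the median log2 fold change was -0.50 over the 111 genes with up to 600 bases of exon and 0.16 over the 1605 genes with more than 5000 bases, and in the Ctrl mice it was -0.62 and 0.32. Of the 126 lower calls in the OVA mice, 27 had up to 600 bases, 37 had 600 to 1000 and 1 had more than 5000. After the trend with length was removed, an alternative chosen after the data were seen, 166 genes were higher and 93 lower in the OVA mice. The ribosomal list then had a median of -0.40 with 20 lower and 2 higher, complex I -0.28 with 3 lower, complexes II to V -0.28 with 5 lower and the mitochondrially encoded genes -0.04 with 1 lower. The neutrophil list kept its 5 calls at a median of -2.10. The part of exon length in the ribosomal and respiratory chain results was not tested beyond these values.

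**Figure D5:**
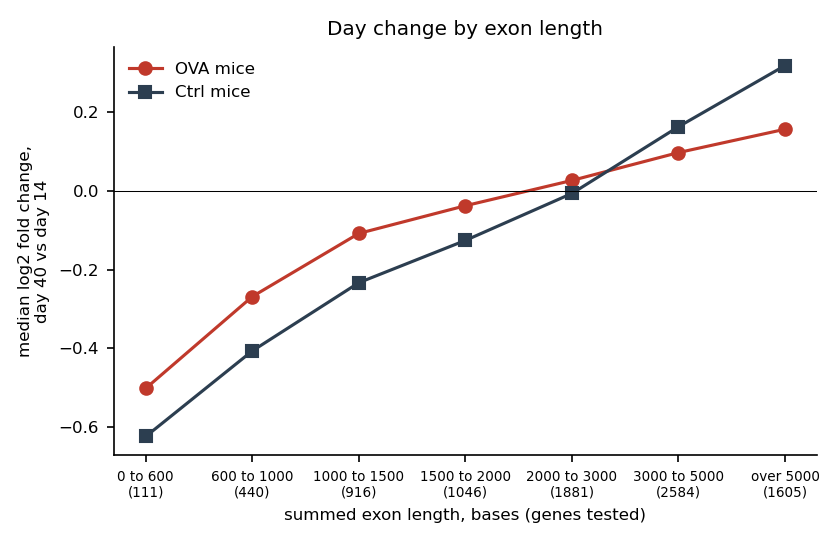
Median log2 fold change of day 40 against day 14 by summed exon length, for OVA mice (red circles) and Ctrl mice (dark squares), with the number of genes in each class. The medians run from -0.50 to 0.16 in the OVA mice and from -0.62 to 0.32 in the Ctrl mice.

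Few genes of fuel metabolism were called. Over all genes tested, 2.12% were called higher and 1.46% lower in the OVA mice. Of 18 glycolysis genes, Gapdh and Pgk1 were lower and Pfkfb3 higher in the OVA mice, each in the same direction and called in the Ctrl mice too. Pgk1, phosphoglycerate kinase, read 77.5, 37.0, 49.9, 50.6 and 66.1 RPKM on day 14 and 29.7, 32.0, 26.1, 27.9 and 31.1 RPKM on day 40, without overlap (limma adjusted p = 0.00232). Pfkfb3, which makes the allosteric activator of phosphofructokinase, rose from 24.9 ± 10.8 to 49.3 ± 13.6 RPKM with overlapping groups (adjusted p = 0.044). The call of Pfkfb3 stood in 3 of the 10 fits without 1 OVA mouse and was lost with median-of-ratios scaling, and that of Gapdh stood in 6. Neither was called without the 3 day 14 mice that stood apart (0.72 and -0.59), while Pgk1, Eci1 and Fbxo32 were. Of 18 fatty acid oxidation genes Eci1 was lower (184 to 113 RPKM, adjusted p = 0.00149), a call lost with quantile normalization and with the correction for exon length, and 0 of 18 genes of the tricarboxylic acid cycle and 0 of 14 genes of the fasting-type fuel switch were called. The OVA groups did not overlap, with day 40 lower, in 7 of the fatty acid oxidation and 6 of the tricarboxylic acid cycle genes, beside 3.89% of all genes. In each of these lists 17 of the 18 genes had a negative log2 fold change, with medians of -0.27 and -0.18. With quantile normalization the medians were -0.15 for fatty acid oxidation, 0.04 for the tricarboxylic acid cycle and 0.01 for glycolysis, the last from -0.13. With median-of-ratios scaling they were -0.35, -0.26 and -0.21. The directions of the tricarboxylic acid cycle and glycolysis medians thus depend on the scaling, while that of fatty acid oxidation stayed negative. In the OVA mice the summed level of the tricarboxylic acid cycle genes ran from 6166 to 6744 RPKM on day 14 and from 5385 to 5528 RPKM on day 40, and that of fatty acid oxidation from 2248 to 2931 and from 1945 to 2116 RPKM, both without overlap. In the Ctrl mice these sums ran from 5377 to 6256 and 4969 to 5635 RPKM, and from 1894 to 2932 and 1634 to 2143 RPKM, both with overlap. The sums use RPKM without the other scalings. Of 16 atrophy ubiquitin ligases and FoxO targets, Fbxo32, the ligase atrogin-1, was higher on day 40, at 42.8, 26.8, 39.5, 37.3 and 42.6 RPKM on day 14 and 64.5, 51.5, 46.8, 69.6 and 53.7 RPKM on day 40. The groups did not overlap (0.60 ± 0.17, adjusted p = 0.0296), and the Ctrl mice had a log2 fold change of 0.92 (adjusted p = 0.00278). With median-of-ratios scaling or the correction for exon length the call of Fbxo32 was lost, and it stood in 6 of the 10 fits without 1 OVA mouse, lost without replicate 2 of day 14 or replicates 1, 4 or 5 of day 40.

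Part of a list of 32 splicing kinases and nuclear speckle genes, chosen after their values were seen, was higher on day 40. All 32 were tested, and 14 were called higher (2.12% of all genes) and 0 lower in the OVA mice, 11 of the 14 in all 10 fits without 1 OVA mouse. In the Ctrl mice 10 were called higher (3.95% of all genes). These counts describe a list chosen with its values in view and are no test. Clk1, a kinase that phosphorylates SR splicing factors, read 10.2, 11.1, 10.5, 9.81 and 9.61 RPKM on day 14 and 22.6, 18.8, 26.3, 24.0 and 25.5 RPKM on day 40. Within each day the mice lay close together and the days were far apart (1.18 ± 0.15, limma adjusted p = 8.86e-05), and in the Ctrl mice the log2 fold change was 0.88. Leng8 rose from 7.32 ± 2.62 to 21.8 ± 4.21 RPKM. Srsf5, an SR splicing factor, rose from 35.5 ± 5.72 to 71.2 ± 11.1 RPKM (adjusted p = 0.000147), with a log2 fold change of 0.29 in the Ctrl mice and an unadjusted interaction p of 0.00132 (adjusted 0.248). Vsig2, an immunoglobulin superfamily membrane protein, completed the 12 higher genes and read 0.710, 0.828, 0.844, 0.906 and 0.567 RPKM on day 14 and 3.75, 2.41, 3.30, 3.98 and 4.93 RPKM on day 40, without overlap (adjusted p = 0.000237), and it entered the test through day 40 alone. Of 15 clock genes only Per3 was called higher, which was also the only one to enter the test through day 40 alone, at 1.27 to 4.00 RPKM on day 14 and 2.66 to 6.39 RPKM on day 40, with overlap and with the call kept in 3 of the 10 fits without 1 mouse. With the 3 day 14 mice that stood apart left out, 12 of the 32 splicing genes were called, Clk1, Leng8 and Srsf5 among them, and Vsig2 stayed called while Per3 (0.60) did not.

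Within their lists Jund (log2 fold change -0.86) of the immediate early genes and Scx (-0.65), a transcription factor of tendon were called, both also lower in the Ctrl mice and neither called without the 3 day 14 mice that stood apart. Scx stood in 5 of the 10 fits without 1 OVA mouse. The lists of collagen fibrils, basement membrane, complement, NF-kB targets, cell cycle, denervation and neuromuscular junction, cholesterol synthesis, lipogenesis, heat shock proteins and endoplasmic reticulum chaperones had 0 calls in the OVA mice. Among these, the 23 tested collagen genes had a median log2 fold change of 0.07 (-0.01 with median-of-ratios scaling), with Col1a1, the chain of type I collagen, at a mean of 186 RPKM on day 14 and 178 RPKM on day 40. The markers of endothelium, fibro-adipogenic cells, adipocytes, Schwann cells and satellite cells likewise had 0 calls.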

How the data were processed

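Poly(A) RNA of EDL muscle was sequenced, with 1 library per mouse. Per the study's methods, the authors aligned the reads to the mouse genome (mm10) with Subread and counted them over RefSeq genes with featureCounts. The deposited values are log2(RPKM + 1) per gene and mouse, in which 0.0001 stands for no read. They were turned back into RPKM, and 27 symbols that a spreadsheet had changed into dates were restored through Entrez numbers.

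Genes with a mean above 3 RPKM in either OVA group were tested on log2(RPKM + 0.1), so that fold changes of low genes are understated. A limma model (limma 3.58.1, R 4.3.3) with a mean-variance trend was fitted to the 20 OVA and Ctrl mice in 4 groups. Contrasts were day 40 minus day 14 in OVA mice, the same in Ctrl mice, their difference, and OVA minus Ctrl on each day. P-values were adjusted over all genes tested (Benjamini-Hochberg), and a gene was called at an adjusted p below 0.05 where its fold change was above 1.5. The count-based test the study used needs counts and was not run on RPKM. The script was tested on simulated data.

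The genes named were members of the gene lists and, in each direction, the 12 called genes with the greatest fold change among those whose groups did not overlap. Predicted genes and pseudogenes were counted but not named. The gene lists, the members and the tests were chosen with earlier results of these data known. Library depth was estimated from the worth of 1 read, the most common RPKM times exon length (GENCODE M21) among low values. Replicate numbers were not taken as pairs of mice in the main fit. Alternatives were the pseudocount, the filter, the scaling, the samples in the fit, the replicate block, leaving out each mouse and, chosen after seeing the data, a correction for exon length and leaving out 3 mice.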

Additional observations from a re-analysis of the deposited data

Results flagged for a closer look

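In 135 groups of 5 mice over 36 genes, 14 had 1 mouse far from the other 4 (a gap above 0.71 of the group's range), and chance gives about 1 in 20 groups. In replicate 5 of the Ctrl mice of day 40, S100a8 read 24.6 RPKM (1.12 to 2.58 in the other 4), S100a9 34.5 (1.47 to 4.59), Lcn2 3.67 (0.264 to 0.741) and Retnlg 2.57 (0.246 to 0.887). Ifit3 read 3.88 RPKM in replicate 5 of the OVA mice of day 14 (2.37 to 2.69 in the others), 17.6 in replicate 3 of the OVA mice of day 40 (5.71 to 7.39) and 13.9 in replicate 1 of the Ctrl mice of day 40 (5.74 to 6.28). Irf7 read 4.31 RPKM in replicate 5 of the OVA mice of day 14 (2.29 to 2.87). Irf9 read 15.0 RPKM in replicate 4 of the Ctrl mice of day 14 (6.57 to 8.77), and Stat2 6.44 in replicate 3 of the Ctrl mice of day 40 (4.55 to 4.84). Rpl38 read 17.2 RPKM in replicate 1 of the OVA mice of day 14 (3.94 to 6.64), and Rps16 6.07 in replicate 1 of the OVA mice of day 40 (2.86 to 3.73). Pgk1 read 35.8 RPKM in replicate 4 of the Ctrl mice of day 40 (25.5 to 27.2). Per3 was low at 2.66 RPKM in replicate 2 of the OVA mice of day 40 (5.86 to 6.39).

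In the EAE mice, which entered no comparison, the summed intestinal genes reached at least 84.6 RPKM on day 40, beside 5.97 to 10.1 RPKM on day 14.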

How the results depend on the processing

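The day comparison in the OVA mice had 183 higher and 126 lower genes, and without 1 mouse it had 138 to 225 higher and 59 to 186 lower, the fewest without OVA replicate 5 of day 14 (66 lower without OVA replicate 1) and the most without OVA replicate 2 of day 14. Higher genes numbered 343 with the filter at 1 RPKM and 610 with no filter, and without a fold threshold 433 were higher and 245 lower. Without the 3 mice that stood apart 38 were lower. In the Ctrl mice, 342 higher and 361 lower became 82 to 653 higher and 182 to 511 lower without 1 mouse, the fewest without Ctrl replicate 1 of day 14 and the most without Ctrl replicate 5 of day 14. Ctrl higher genes also moved to 523 without Ctrl replicate 4 of day 14 and, for day 40, to 214, 97, 571 and 205 without Ctrl replicates 1, 3, 4 and 5. Ctrl higher genes numbered 198 with a pseudocount of 1, 524 with the filter at 1 RPKM, 693 with no filter, 186 with median-of-ratios scaling and 207 with quantile normalization. Without a fold threshold 1258 were higher and 1003 lower in the Ctrl mice, with the length correction 143 and 187, and without the 3 mice 150 and 222. Interactions numbered 0 and reached 1 positive and 1 negative with a pseudocount of 1 or 0.5, 1 and 3 with median-of-ratios scaling, 2 and 2 with quantile normalization, 5 and 5 with the length correction, 6 and 2 without the 3 mice, and 0 to 2 and 0 to 3 without 1 mouse. The cause of these shifts was not tested, except that filters change how many genes are tested. With the replicate block 1 positive interaction passed, and 174 genes were higher and 123 lower in the OVA mice. Same-numbered OVA mice had correlations of -0.0242 to 0.365, and 3 of 5 mice on each day matched their own number best. The numbers were not taken as pairs in the main fit, and whether they mark a shared effect was not tested. Over 8440 values of single genes, 426 lost and 37 gained a call, and none of a called gene changed sign. Some genes without a call did, such as Isg15, from -0.0036 to 0.45 over the fits without 1 OVA mouse. On average over genes, counting error was small beside the spread between mice, but that mean says little of genes at low levels. The 5 mice a group, sampled on different days as different animals, limit what the comparison can separate.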

Other observations

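Mast cell genes, a list chosen after their values were seen, had a median log2 fold change of 0.30 in the OVA mice with 0 of 6 tested genes called, and -0.98 in the Ctrl mice with 4 called lower. The difference between the day changes had an unadjusted p below 0.05 in 5 of the 6, each with the more positive change in the OVA mice, beside 5.45% of all genes in that direction. Because the mast cell list was chosen with its values in view, this count is a description and no test. Collagen genes had 0 of 23 called in the OVA mice and 4 lower in the Ctrl mice, beside 4.17% of all genes called lower there. Of the 23, 11 had an unadjusted interaction p below 0.05, all in the same direction as the mast cell genes, beside the same 5.45%. Col1a1, the main chain of type I collagen, had a log2 fold change of -0.06 in the OVA mice and -1.26 in the Ctrl mice (limma adjusted p = 0.0116), in which its mean went from 432 to 172 RPKM.

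In the Ctrl mice 2 of 15 clock genes and 2 of 14 fuel switch genes were called higher, beside 3.95% of all genes. In the OVA mice 1 clock gene, Per3, and 0 fuel switch genes were called. Per1, a clock gene that glucocorticoids also induce, had a log2 fold change of -0.52 in the OVA mice (limma adjusted p = 0.342) and 1.52 in the Ctrl mice (adjusted p = 0.00642), and the difference had an unadjusted p of 0.000254 and an adjusted p of 0.131. Ucp3, an uncoupling protein of muscle mitochondria, had -0.45 in the OVA mice and 0.96 in the Ctrl mice (adjusted p = 0.00909). Its difference had an unadjusted p of 0.000217 and, like that of Per1, did not pass adjustment. The hour at which the muscles were taken is not given in the sources used here.

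Timp4, an inhibitor of matrix metalloproteinases and in no list, was named after its values were seen. It read 21.2, 10.3, 9.66, 9.80 and 8.40 RPKM in the OVA mice of day 14 and 4.79, 7.26, 4.07, 3.52 and 4.27 RPKM in those of day 40, without overlap (log2 fold change -1.25, limma adjusted p = 0.00429), and stayed called without the 3 day 14 mice that stood apart (-1.08). Its log2 fold change in the Ctrl mice was -0.02, and the unadjusted interaction p was 0.0022.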
